A study of Mus musculus with 2 samples.

Results

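The genes of 10 developmental transcription factors, 5 of the SOX family (Sox4, Sox9, Sox10, Sox17 and Sox18) and 5 of the Iroquois family (Irx1, Irx2, Irx3, Irx4 and Irx5), were followed through the cell classes of the adult mouse mammary gland. They were taken by symbol and made up 10 of the 27998 genes counted in each library. Within the epithelium these genes did not share one pattern. Irx4 was a basal gene, Irx3 and Sox10 were highest in luminal progenitor (LP) cells, Sox9 was highest in mature luminal (ML) cells, Sox4 was spread over all 3 epithelial classes, and Sox17 and Sox18 were found mainly in a few endothelial-like cells.

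SOX proteins bind DNA through a high-mobility-group (HMG) box and bend it, and members are grouped by similarity of that box. Sox9 and Sox10 belong to the SoxE group with Sox8, Sox4 to SoxC with Sox11 and Sox12, and Sox17 and Sox18 to SoxF with Sox7. IRX proteins are homeodomain factors of the TALE class, and in mammals their genes lie in 2 clusters of 3. In the mammary gland, Sox9 and Sox10 are known for roles in luminal progenitor and stem cell activity. Sox17 and Sox18 are known from blood and lymphatic vessel endothelium, and Sox10 outside the gland from neural crest and Schwann cells. Basal cells form the contractile outer layer of the ducts, LP cells are the hormone receptor-negative luminal cells that give rise to secretory cells, and ML cells are the hormone-sensing luminal cells.

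The data were 2 single-cell RNA-seq libraries made with the 10x Genomics Chromium 3′ method, 1 of total epithelium (Lin–CD24+ cells) and 1 of sorted basal cells (Lin–CD29hiCD24+ cells), from adult FVB/NJ mice aged 10 weeks. The series drew on 8 mice in all, cells were pooled across animals before capture, and neither group carried a transgene or a treatment. Every value below is in unique molecular identifiers (UMIs, here called counts). A level is the summed count of a class divided by all counts of that class, scaled to counts per 1000000 (CPM), with its exact 95% Poisson interval. With 1 library per condition there was no replicate check and no test, and intervals cover counting error only.

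The total epithelium library held 3302 cells with 802 to 12967 counts each. Cells with 10 or more counts of Krt5, Krt14 and Acta2 were called basal (1306 cells), other cells with 10 or more counts of Prlr, Stc2 and Gpx3 were called ML (1133 cells), and those left with 3 or more counts of Krt8, Krt18 and Krt19 were called LP (766 cells). The 97 remaining cells were called stromal. No member of either family entered this split. The classes carried their markers, with 12 basal markers at 50628 CPM in basal cells against 278 CPM in LP and 182 CPM in ML cells, 10 LP markers at 62546 CPM in LP cells against 5835 CPM in ML cells, and 10 ML markers at 24235 CPM in ML cells against 1216 CPM in LP cells. The stromal class was a mixture: 41 of its 97 cells had at least 1 count of the basal rule genes, and its basal markers summed to 6764 CPM. Median depth was 1838.5 counts in basal, 2483.5 in LP, 3403 in ML and 1184 in stromal cells, and 26 cells passed both the basal and the ML rule. The sorted basal library held 4771 shallower cells, with a median of 487 counts.

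On GRCm38 (GENCODE vM21), Irx1 (chr13:71957921-71963723, minus strand), Irx2 (chr13:72628820-72634198, plus strand) and Irx4 (chr13:73260479-73269608, plus strand) form one cluster, and Irx3 (chr8:91798525-91802067, minus strand), Irx5 (chr8:92357625-92376286, plus strand) and Irx6 the other. Irx2 and Irx4 are separated by 626 kb, and Irx3 and Irx5 by 556 kb, with no other protein-coding gene annotated in between. The SOX genes lie apart, Sox4 at chr13:28948919-28953713, Sox9 at chr11:112782224-112787760, Sox10 at chr15:79154908-79165240, Sox17 at chr1:4490931-4497354 and Sox18 at chr2:181669836-181671640. Irx3 is overlapped on the other strand by Irx3os, Sox4 by Gm26735 and Sox17 by Gm37587. Irx3os had 56 counts against 1483 for Irx3. The sources used here do not state how counting treated strand, and reads over these overlaps were not examined.

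Irx2 and Irx4 are shown by sequence because they are neighbours on the same strand whose levels parted in the luminal classes. The stretches below run 5′ to 3′ up to the GENCODE start of each gene, and come from RefSeq (GRCm38.p6) promoter windows of 250 bases. The Irx4 window was cut by the 18 bases that lay inside the GENCODE gene. Capitals mark the letters GGGCGG, the GC box, found on the strand shown.
Irx2, chr13:72628570-72628819, plus strand: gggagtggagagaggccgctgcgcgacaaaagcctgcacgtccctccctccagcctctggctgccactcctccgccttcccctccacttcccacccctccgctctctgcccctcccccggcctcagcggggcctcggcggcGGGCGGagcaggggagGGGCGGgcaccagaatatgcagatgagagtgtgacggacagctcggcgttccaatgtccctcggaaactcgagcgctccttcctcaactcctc
Irx4, chr13:73260247-73260478, plus strand: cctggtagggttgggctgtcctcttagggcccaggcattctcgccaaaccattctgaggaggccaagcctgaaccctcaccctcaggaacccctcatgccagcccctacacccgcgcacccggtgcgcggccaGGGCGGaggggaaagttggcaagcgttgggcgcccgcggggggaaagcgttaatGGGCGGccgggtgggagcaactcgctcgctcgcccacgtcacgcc
Each stretch held 2 GC boxes, and GC content was 68.4% for Irx2 and 68.1% for Irx4. The searches below used the uncut windows of 250 bases, and that of Irx3 lay wholly inside its GENCODE gene. Of 32851 RefSeq promoter windows of 250 bases, 32.7% held GGGCGG on either strand. The HMG-box core letters ACAAAG and ACAATG, the IRX-type letters ACATGT and TATAAA were searched on both strands and were not in the windows of Sox4, Irx2, Irx3 and Irx4. Of all windows, 16.5% held ACAAAG, 10.7% ACAATG, 4.58% ACATGT and 12.4% TATAAA.

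**Figure D1:**
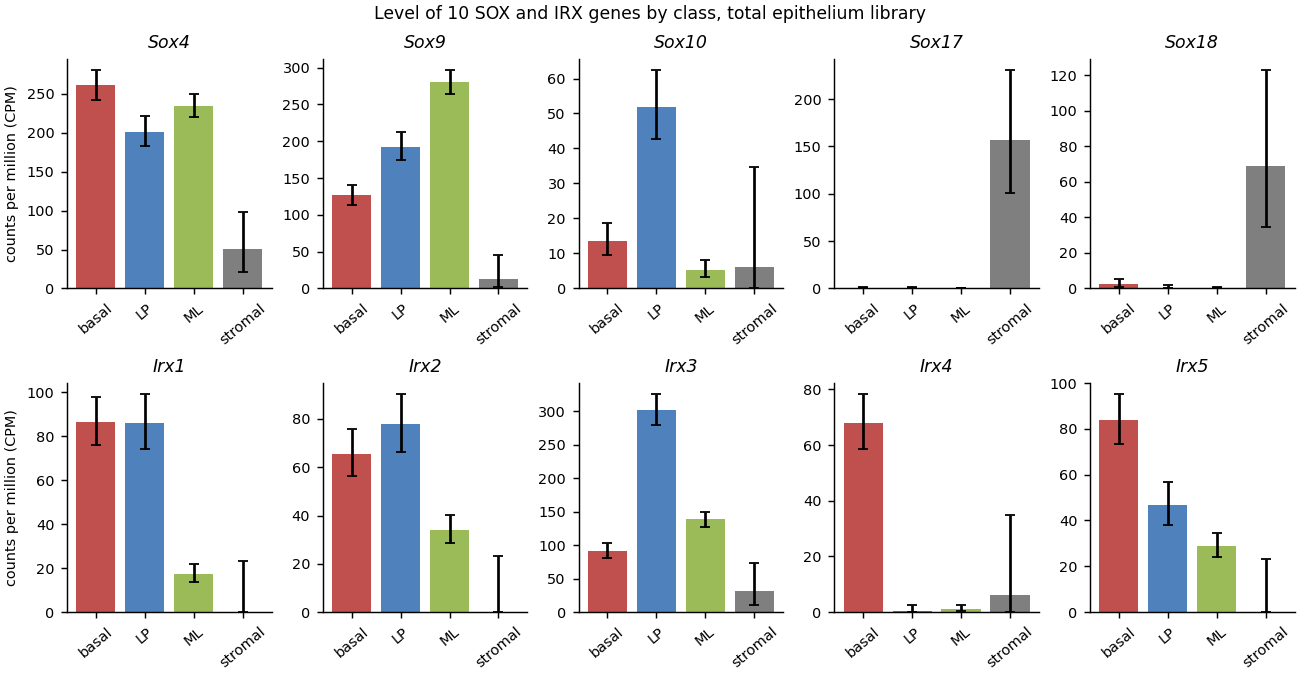
Level of each SOX and IRX gene in the 4 classes of the total epithelium library, in CPM. Bars are summed levels, whiskers are exact 95% Poisson intervals, each panel has its own axis from 0, and the panels show Irx4 at 68.1 CPM in basal cells and below 1 CPM in both luminal classes, against 302 CPM of Irx3 in LP cells.

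Irx4 separated basal from luminal cells more sharply than any other member compared. Its 189 counts in 1306 basal cells gave 68.1 CPM, against 1 count in 766 LP cells (0.463 CPM) and 4 counts in 1133 ML cells (0.968 CPM). The level in LP cells was 147-fold lower than in basal cells, with an interval of 26.1 to 5835. In ML cells it was 70.3-fold lower, with an interval of 27.0 to 261. In LP cells Irx4 stood at 0.681% of its basal level, and 6 basal genes (Mylk, Cxcl14, Sparc, Myl9, Tagln and Myh11) stood at 0.268% to 1.11% of theirs, with a median of 0.612%. In ML cells Irx4 stood at 1.42% and those genes at 0.123% to 2.13%, with a median of 0.306%, the highest being Sparc. The few luminal counts of Irx4 thus lay within the range of these genes in both classes, above their median in ML cells, and whether luminal cells express Irx4 was not tested.

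Irx3 had the opposite direction. It reached 302 CPM in LP cells (652 counts), 138 CPM in ML cells (571 counts) and 91.9 CPM in basal cells (255 counts). The LP level was 3.29-fold the basal level, with an interval of 2.84 to 3.82, and 2.19-fold the ML level, with an interval of 1.95 to 2.45. Its chromosome 8 neighbour Irx5 did not follow it. Irx5 was highest in basal cells, at 83.9 CPM, with 46.8 CPM in LP and 28.8 CPM in ML cells. The ratio of LP to basal level was 0.558 for Irx5, with an interval of 0.437 to 0.707.

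Irx1 and Irx2 were shared by basal and LP cells. Irx1 stood at 86.5 CPM in basal and 86.2 CPM in LP cells, levels that could not be told apart (ratio 0.997, interval 0.819 to 1.21), and at 17.4 CPM in ML cells. The ML level of Irx1 was thus 4.96-fold below basal and 4.95-fold below LP. Irx2 stood at 77.8 CPM in LP and 65.6 CPM in basal cells, again within counting error of each other (ratio 1.19, interval 0.957 to 1.47), and at 34.1 CPM in ML cells. ML cells thus had the lowest level of Irx1, Irx2 and Irx5 among the epithelial classes, whereas for Irx3 the lowest was in basal cells.

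Among the SOX genes, Sox10 had its highest level in LP cells. It gave 51.9 CPM in LP cells (112 counts), 13.7 CPM in basal cells (38 counts) and 5.32 CPM in ML cells (22 counts). LP cells exceeded basal cells 3.79-fold, with an interval of 2.60 to 5.63, and ML cells 9.75-fold, with an interval of 6.13 to 16.2. With each cell thinned to 800 counts, the log2 ratio of LP to basal cells went from 1.92 to 1.30 and that of ML to basal cells from −1.36 to −2.38, both in the same direction as before. As a share of the LP level, Sox10 stood at 10.3% in ML cells, while the LP genes Csn3, Wfdc18, Trf and Lcn2 stood there at 8.28% to 10.2%. In basal cells Sox10 stood at 26.4% of its LP level, and those 4 genes at 2.55% to 33.1% with a median of 4.44%, the highest being Lcn2.

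Sox9 was highest in ML cells. Its level was 127 CPM in basal cells (352 counts), 193 CPM in LP cells (416 counts) and 280 CPM in ML cells (1158 counts). ML cells exceeded basal cells 2.21-fold, with an interval of 1.96 to 2.5, and LP cells 1.45-fold, with an interval of 1.30 to 1.63. The basal level of Sox9 was 45.3% of its ML level, whereas the ML genes Areg, Ly6d, Cited1 and Prom1 stood in basal cells at 3.17% to 4.96% of theirs. The share kept by Sox9 in basal cells thus lay above that of each of these 4 genes.

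Sox4, a SoxC factor, differed least between the epithelial classes. It gave 261 CPM in basal, 235 CPM in ML and 202 CPM in LP cells. The lowest and the highest of these differed 1.29-fold, with an interval of 1.15 to 1.46, and the ratio of ML to basal level had an interval of 0.817 to 0.992. All 3 levels therefore lay within 2-fold of each other.

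A gene was called higher or lower when its CPM differed at least 2-fold between classes, among genes with 20 or more counts over both. In LP against basal cells 8 members could be compared, 2 were higher (Sox10 and Irx3) and 1 was lower (Irx4), beside 11.5% of all 9670 genes compared that were higher and 22.0% that were lower. In ML against basal cells 1 of 8 was higher (Sox9) and 4 were lower (Sox10, Irx1, Irx4 and Irx5), beside 18.7% and 20% of 10426 genes. In ML against LP cells 0 of 7 were higher and 4 were lower (Sox10, Irx1, Irx2 and Irx3), beside 17.9% and 10.5% of 9715 genes. The median log2 ratio of all genes compared was −0.23, 0.03 and 0.29 in these 3 comparisons. These 3 comparisons share their classes, so their counts are not independent of each other.

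**Figure D2:**
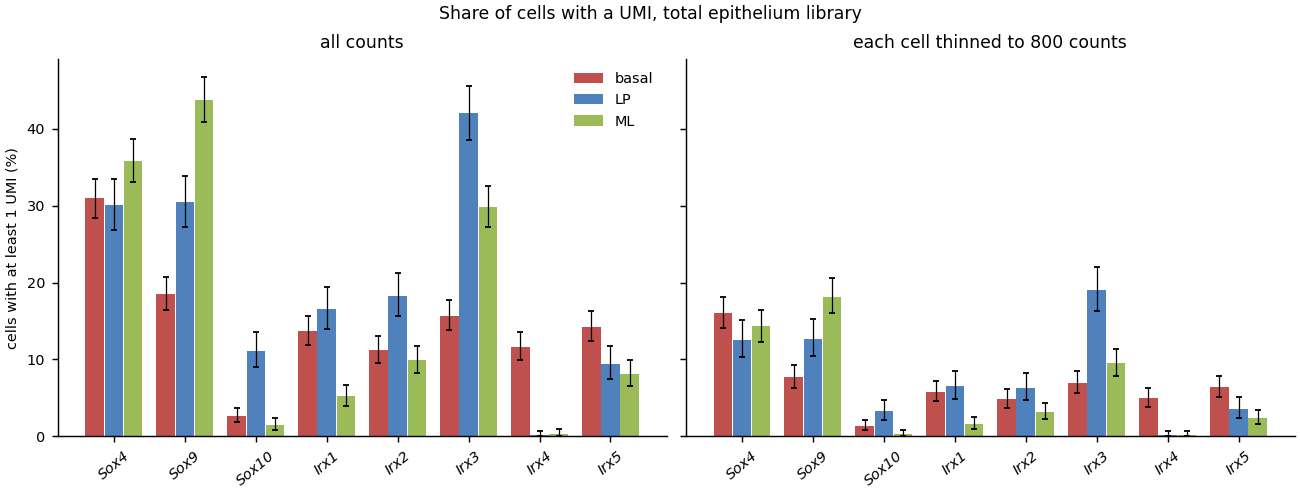
Share of basal, LP and ML cells with at least 1 UMI of 8 SOX and IRX genes, in percent, from all counts (left) and with each cell thinned at random to 800 counts (right). Whiskers are exact 95% binomial intervals. Thinning lowered every share except that of Irx4 in LP cells, with 1 cell before and after. Irx3 kept its highest share in LP cells (42.0% before, 19.1% after).

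Per cell, these genes were sparse. Irx3 had a UMI in 42.0% of LP, 29.8% of ML and 15.7% of basal cells, and Irx4 in 11.6% of basal cells, 0.131% of LP and 0.353% of ML cells. Because ML cells had more counts per cell, each cell was also thinned to 800 counts, a depth that every cell reached. Irx3 then had a UMI in 19.1% of LP, 9.53% of ML and 6.97% of basal cells. Sox9 went from 43.8% of ML, 30.4% of LP and 18.5% of basal cells to 18.2%, 12.7% and 7.66%, with its order kept. Sox4 did not keep its order: its share was highest in ML cells before thinning (35.8%, with 30.9% in basal and 30.0% in LP cells) and highest in basal cells after it (16.0%, with 14.3% in ML and 12.5% in LP cells), and the exact 95% binomial intervals of basal and ML overlapped. At 800 counts per cell, at least 1 of the 5 IRX genes was seen in 31.8% of LP, 24.3% of basal and 15.9% of ML cells, and at least 1 of the 5 SOX genes in 29.2% of ML, 25.1% of LP and 23.1% of basal cells.

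**Figure D3:**
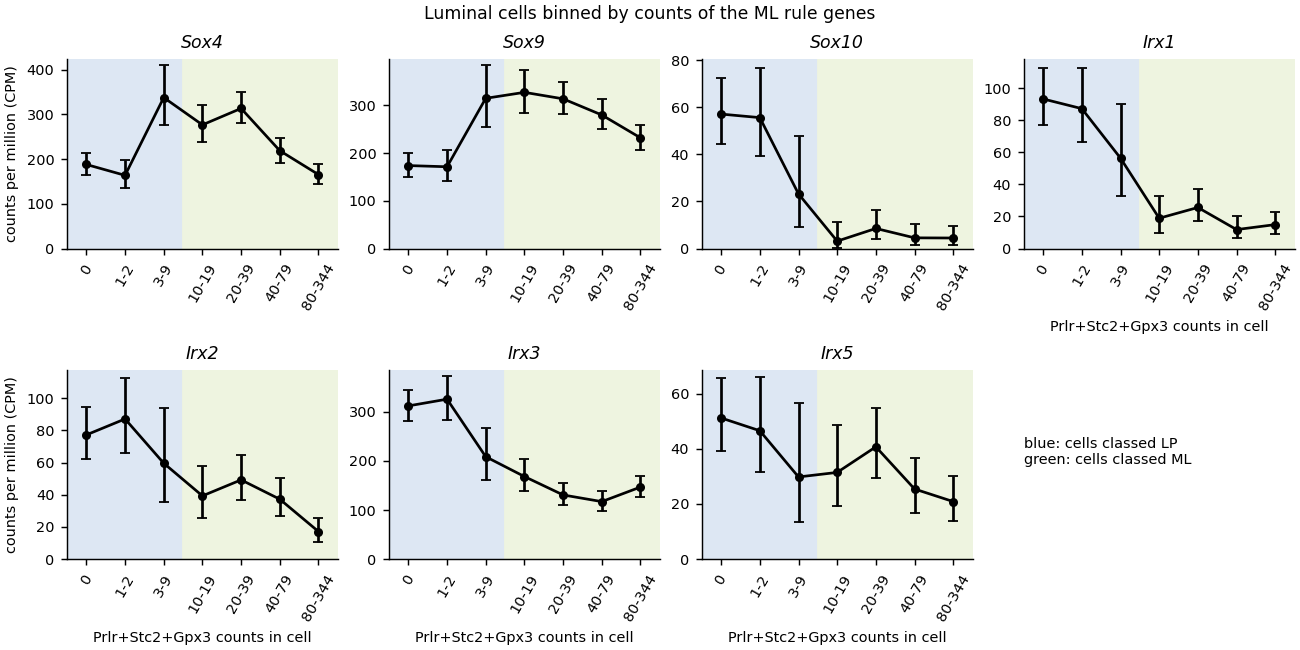
Levels of 7 SOX and IRX genes in LP and ML cells binned by the summed count of Prlr, Stc2 and Gpx3 in the cell (horizontal axis), in CPM with exact 95% Poisson intervals. Sox10 falls from 57.1 CPM in the first bin to 3.15 CPM at 10 to 19 counts, while Sox4 and Sox9 step up at 3 to 9 counts, inside the LP class.

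The border between LP and ML was set by a count of 10, so the luminal cells were also ordered by that count. The 448 LP cells with 0 counts of Prlr, Stc2 and Gpx3 and the 202 with 1 or 2 counts had overlapping intervals for each of the 7 genes shown. In the 116 LP cells with 3 to 9 counts, the intervals of Sox4, Sox9 and Irx3 lay apart from those at 0 counts, and those of the other 4 genes overlapped them. Their Sox9 level was 315 CPM, against 174 CPM at 0 counts and 327 CPM in ML cells with 10 to 19 counts. Their Sox4 level was 338 CPM, against 188 CPM and 277 CPM. Their Sox10, at 23.2 CPM from 7 counts, lay between 57.1 CPM and 3.15 CPM, and their Irx3, at 209 CPM, between 312 CPM and 168 CPM. For Sox4 and Sox9, then, these 116 cells were nearer to ML than to other LP cells, and leaving out LP cells with 3 or more rule counts lowered the LP levels of Sox4 to 179 CPM and of Sox9 to 171 CPM.

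Among ML cells the levels did not move evenly with the rule count. Over the bins of 10 to 19, 20 to 39, 40 to 79 and 80 or more counts, Sox4 stood at 277, 314, 219 and 166 CPM, and Sox9 at 327, 314, 280 and 232 CPM. Irx2 stood at 39.3, 49.3, 37.2 and 17.1 CPM, and Irx3 at 168, 131, 117 and 147 CPM. The last bin was thus the lowest of the 4 for Sox4, Sox9 and Irx2, and the third bin for Irx3. Median depth rose from 1926 counts in the bin of 3 to 9 counts to 4482 counts in the last bin, and its part in these differences was not tested.

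A set of 158 ML cells also had 10 or more counts of 10 LP markers. In these cells Irx5 stood at 72.7 CPM (62 counts), against 17.4 CPM in the other 975 ML cells (57 counts) and 46.8 CPM in LP cells. Sox4 behaved likewise, at 336 CPM against 208 CPM in other ML and 202 CPM in LP cells. Both genes were thus higher in cells with both luminal programmes than in either luminal class as a whole. The excess over LP was 1.55-fold for Irx5 (interval 1.11 to 2.15) and 1.67-fold for Sox4 (interval 1.43 to 1.94). For Sox4 this level was not particular to them, as the 116 LP cells with 3 to 9 rule counts stood at 338 CPM. Sox10 (23.4 CPM), Irx1 (39.8 CPM), Irx2 (51.6 CPM) and Irx3 (202 CPM) lay between the LP level and the level of the other ML cells. Sox9, at 287 CPM, stayed at the level of the other ML cells (278 CPM). Of the 22 Sox10 counts in ML cells, 20 came from these 158 cells, and the other 975 cells held 2 (0.610 CPM). The 158 cells had a median of 5408.5 counts, against 3195 for the other ML cells and 2483.5 for LP cells. Their basal markers stood at 134 CPM, below the 278 CPM of LP cells. The part of droplets with 2 cells was not tested.

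Within LP cells, Elf5, a regulator of secretory luminal fate, split the 766 cells into 383 with and 383 without a UMI. Irx5 was 1.77-fold higher with Elf5 (interval 1.13 to 2.85), Sox10 1.70-fold higher (interval 1.12 to 2.65) and Irx1 1.43-fold higher (interval 1.04 to 1.98), and Sox9 was lower, at 165 CPM against 234 CPM (interval of the ratio 0.580 to 0.861). Irx3 was 299 CPM and 307 CPM. The Elf5-positive cells had a median depth of 2929 counts against 1956 for the others, and the part of depth in these ratios was not tested. The 91 LP cells with a UMI of Kit, a receptor of luminal progenitors, gave ratios to the other 675 of 1.07 to 1.27 for the 7 SOX and IRX genes with more than 1 count in LP cells, each with an interval that held 1. In ML cells, splitting by Ly6a gave ratios of 0.831 to 1.31 for those 7 genes, each again with an interval that held 1. Splitting by Esr1, the oestrogen receptor gene, left Sox4 higher in the 100 Esr1-positive cells, at 316 CPM against 225 CPM (interval of the ratio 1.16 to 1.68).

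Sox17 and Sox18 were read in the stromal class. All 25 counts of Sox17 came from 7 of the 16 endothelial-like cells, which gave 1042 CPM in that set. None was found in 1306 basal, 766 LP or 1133 ML cells, and 0 of 1306 basal cells allows a share of cells with a UMI of up to 0.230%, which does not limit the share that expresses the gene below this depth. All 11 stromal counts of Sox18 came from 7 of the same 16 cells (458 CPM), 4 of which also had Sox17. A further 7 counts of Sox18 were in basal cells (2.52 CPM). The 16 cells were named by 8 endothelial markers, and Egfl7 had a UMI in 14 of them, Cdh5 in 10, Cldn5 in 10 and Pecam1 in 9. The other markers were seen in fewer, Flt1 in 8, Emcn in 7, Kdr in 5 and Tie1 in 3. Pecam1 encodes CD31, 1 of the surface proteins by which the Lin gate removes cells.

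In stromal against epithelial cells, 1 of 9 members was higher (Sox17) and 8 were lower, beside 17.4% of 10983 genes higher and 12.7% lower. With mitochondrial, ribosomal and the 50 most abundant genes left out of the totals, those shares of all genes were 13.4% and 18.3%. A class at 0 counts gives only a bound on the ratio and was never called higher. Sox17 stood 472-fold higher against a floor of 3 counts in epithelial cells, with an exact interval from 356.5. It met the minimum of 20 counts through its 25 stromal counts alone. A gene that does so is always called higher here, so this call was fixed by the filter. The stromal class held 159975 counts, so that 3 counts stood for 18.8 CPM. Of the 8 lower members Irx1, Irx2 and Irx5 had 0 counts. Set to that floor of 3 counts, they stood 2.93-fold, 2.89-fold and 2.66-fold lower, with exact intervals from 2.37, 2.34 and 2.16. Sox10 and Irx4 had 1 count each, and their intervals of the ratio (0.00830 to 1.86 and 0.00736 to 1.65) held 1. Sox18, with 18 counts over both, fell under the minimum of 20, and its ratio was 89.1 (interval 31.5 to 271). No count of Sox10 was found in the 15 Schwann-like cells. Those cells held 17701 counts in all, where 3 counts stand for 169 CPM, so a level such as that of LP cells was not detectable at this depth.

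**Figure D4:**
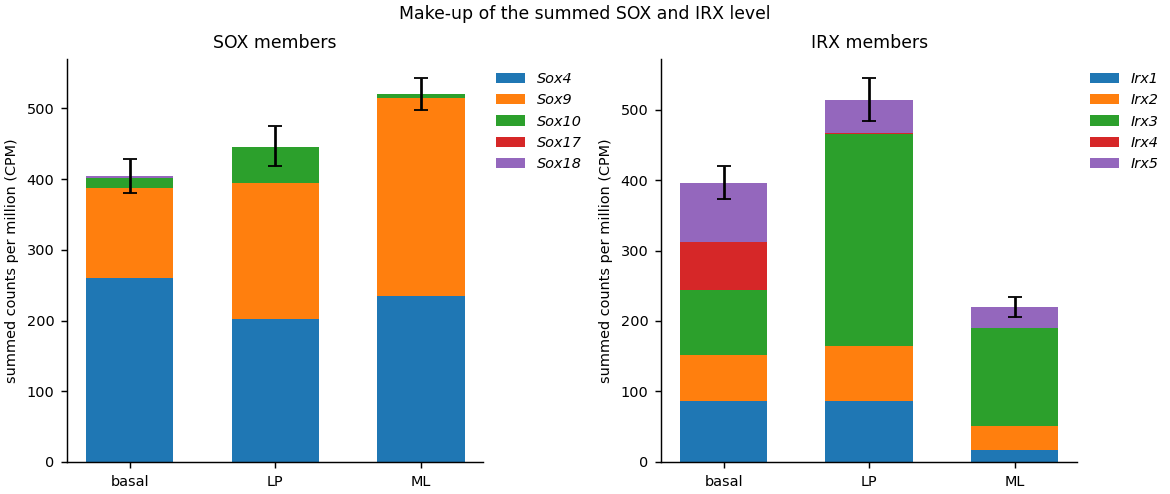
Summed level of the 5 SOX genes (left) and the 5 IRX genes (right) in basal, LP and ML cells, in CPM, split by gene. Whiskers are exact 95% Poisson intervals of the sum. Irx3 makes up 58.8% of the IRX sum in LP and 63.0% in ML cells, and 23.2% in basal cells.

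Summed over the family, IRX counts were 396 CPM in basal, 513 CPM in LP and 220 CPM in ML cells. The counts come from the 3′ end, so gene length does not enter them, but capture can differ between genes. In basal cells the 5 IRX genes were close to evenly represented, from 16.6% (Irx2) to 23.2% (Irx3) of the sum. In LP and ML cells Irx3 alone made up 58.8% and 63.0%. The chromosome 13 genes (Irx1, Irx2 and Irx4) held 55.6% of IRX counts in basal cells (exact 95% binomial interval 52.6% to 58.6%), 32.0% in LP and 23.9% in ML cells. SOX counts summed to 404 CPM in basal, 446 CPM in LP and 520 CPM in ML cells, with Sox4 giving 64.6% in basal cells and Sox9 53.9% in ML cells.

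Detection of 2 or more IRX genes in a cell was seen in 21.3% of LP, 16.0% of basal and 9.53% of ML cells, and of 2 or more SOX genes in 19.5% of ML, 15.1% of LP and 8.12% of basal cells. Thinned to 800 counts, these shares were at most 4.36%, and the IRX order changed. Basal cells then had the highest IRX share (4.36%), ahead of LP cells (3.39%) and ML cells (0.971%). The SOX order was kept, with ML cells at 3.53%, LP cells at 3.26% and basal cells at 2.14%. In 766 LP cells, Irx3 was seen in 322, Irx5 in 72 and both in 46. Of the Irx3-positive LP cells 14.3% also had Irx5, against 5.86% of the others. The positive cells were deeper, with a median of 3114.5 counts against 2113.5. With cells thinned to 800 counts, the shares were 5.48% and 3.07%, from 8 cells with both. Sox4 and Sox9 were seen together in 214 of 1133 ML cells, and thinned, 24.1% of Sox4-positive and 17.2% of Sox4-negative ML cells had Sox9. In basal cells, thinned, Irx4 was seen in 12.7% of Irx2-positive and 4.59% of Irx2-negative cells, from 8 cells with both. The thinned IRX pairs did not all go this way. Irx2 was seen in 6.58% of Irx1-positive and 4.715% of Irx1-negative basal cells, from 5 cells with both. In LP cells the shares were 4% and 6.425%, from only 2 cells with both. Irx5 was seen in 4.615% of Irx4-positive and 6.45% of Irx4-negative basal cells, from only 3 cells with both. Sox9 was seen in 9.59% of Irx3-positive and 13.4% of Irx3-negative LP cells after thinning, whereas without it the shares were 36.0% and 26.4%.

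Of 15 further family genes (14 SOX genes and Irx6), 3 had 20 or more counts, 7 had 1 to 19 and 5 had 0, Irx6 among them. Sox8, the third SoxE gene, was mainly basal, with 84 counts in basal cells (30.3 CPM), 9 in LP (4.17 CPM) and 3 in ML cells (0.726 CPM). It was 7.26-fold lower in LP than in basal cells (interval 3.65 to 16.4). The 3 SoxE genes were thus each highest in another epithelial class, Sox8 in basal, Sox10 in LP and Sox9 in ML cells. Sox5 had 27 basal, 13 LP and 1 ML count. Sox12, of the SoxC group with Sox4, had 10, 2 and 17. Among those of the list with 20 or more counts in the comparison, 1 of 2 was called lower in LP than in basal cells (Sox8) and 2 of 3 in ML than in basal cells (Sox5 and Sox8), beside the 22.0% and 20% of all genes given above, and none was called higher there. In stromal against epithelial cells Sox5 (2 stromal counts) and Sox8 (4 stromal counts) passed 2-fold higher, with intervals of the ratio (0.324 to 10.7 and 0.631 to 6.25) that held 1.

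The sorted basal library gave a second, separately captured set of basal cells. Its 1758 cells that met the basal rule carried basal markers at 41950 CPM. A further 2811 of its 4771 cells met none of the rules, but their median depth was 399 counts and their basal markers stood at 24506 CPM, so a fixed count of 10 left out many shallow basal cells of this library. Irx4 gave 169 CPM there (203 counts) against 68.1 CPM in the basal cells of total epithelium. Sox4 gave 900 CPM against 261 CPM, Irx2 gave 273 CPM against 65.6 CPM, and Sox10 gave 40.9 CPM against 13.7 CPM. These 4 genes were more than 2-fold higher in the sorted library, by 2.49, 3.45, 4.17 and 2.99-fold.

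**Figure D5:**
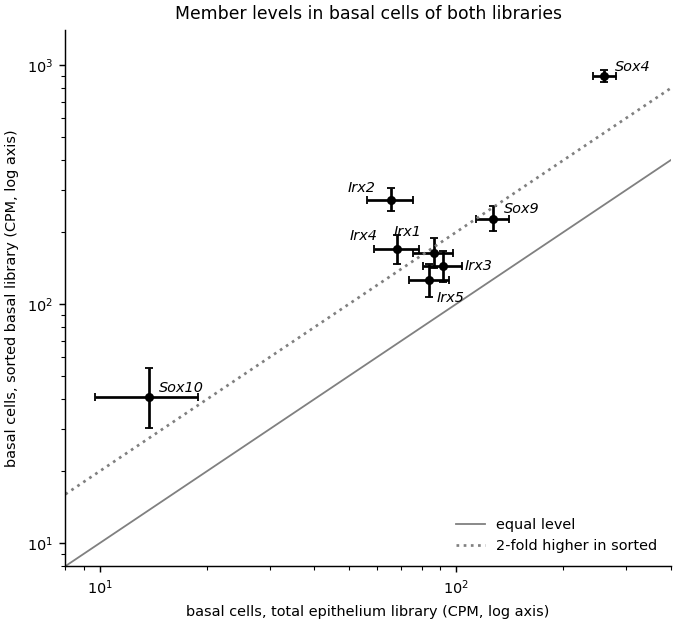
Levels of 8 SOX and IRX genes in cells that met the basal rule in the total epithelium library (horizontal, log axis) and in the sorted basal library (vertical, log axis), in CPM with exact 95% Poisson intervals. All 8 lie above the line of equal level, by 1.5-fold (Irx5) to 4.17-fold (Irx2).

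The other 4 genes compared were higher by 1.5-fold (Irx5) to 1.90-fold (Irx1), so 4 of 8 were called higher and 0 lower, beside 27.3% and 17.8% of 9442 genes. The median log2 ratio of all genes was 0.37. Sox18, too rare to be compared, had 1 count in sorted and 7 in unsorted basal cells. With every cell thinned to 200 counts, to match depth, the log2 ratio of Irx2 went from 2.06 to 1.38 and that of Sox4 from 1.79 to 1.57, with Irx4 at 1.53, so Irx2 was no longer the gene that differed most. With 1 library each, a difference between sorted and unsorted cells and a difference between libraries cannot be told apart. Of 151 Irx5 counts, 27 came from 1 cell of 834 counts, and without it Irx5 stood at 103 CPM and 1.23-fold. Taking all 4771 cells in place of those that met the rule gave 866 CPM for Sox4, 264 CPM for Irx2, 155 CPM for Irx4 and 35.8 CPM for Sox10. The order of levels also differed between libraries, with Irx2 the highest IRX gene in sorted cells, whereas in unsorted basal cells Irx3 was highest with an interval that overlapped those of Irx1 and Irx5. The 2 libraries shared 28 cell barcodes.

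Over 6 sets of 20 or more cells (basal, LP, ML with and without LP markers, fibroblast-like and unnamed stromal cells), the genes most like each member were found by Pearson correlation of log2(CPM + 10), among 9063 genes and with no test. Among the genes most like Irx4 were Fbxl22 and Tril. Irx3 was most like Hilpda, Arhgap8 and Cdc42se1, Sox9 like Lsr, a component of tricellular junctions, Rpl9 and Stxbp2, and Sox10 like Coq10b, Mast4 and Bcl10. Irx1 was most like Abcg2, an efflux transporter, Sclt1 and Fam193a, Irx2 like Slc46a1, F2rl1 and Lcorl, Irx5 like Irf2bp1, Ino80 and Hmbox1, and Sox4 like Ythdf3, Mapkapk2 and Chd8. The coefficients were 0.974 (Sox10 with Bcl10) or higher, over 6 points from 1 library.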

How the data were processed

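Cells of 1 total epithelium and 1 sorted basal library were captured on a 10x Genomics Chromium machine, and 3′ libraries were sequenced on a NextSeq 500. Reads were run by the authors through Cell Ranger (1.2.1 per the submitters' processing notes, 2.0 per the study's methods) against mm10, and they deposited UMI counts per gene and cell, with no normalization. The filter that chose the cells is not given in the sources used here, and no doublet caller was run. The counts were read with Python 3.11.15, numpy 2.4.6, scipy 1.17.1 and pandas 2.3.3, and drawn with matplotlib 3.10.9.

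Cells were split by the count rules given in the text, and counts were summed per class. Intervals are exact Poisson (counts), Clopper-Pearson (shares) and conditional binomial (ratios), all at 95%. A class with 0 counts was set to a floor of 3 counts, summed over the class, and was never called higher. The 9 genes of the split were left out of the background counts. A stromal cell was named by the marker list with the highest summed count, if that was 3 or more. The ratio calls were tested on simulated data with known folds.

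All 10 members were named, family genes with 20 or more counts, and the 3 genes most like each member with 50 or more counts, of which 1 is not reported here. The members, lists and splits by single genes were chosen with earlier results of these data known. Alternatives were other rule counts, a stricter LP class, thinning, other totals, count minimums and folds. With 1 library per condition, no test between conditions was run.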

Additional observations from a re-analysis of the deposited data

How the results depend on the processing

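Of 132 recomputed counts of members 119 stayed within 1.5 times. Of 309 recomputed log2 ratios of single members, 292 lay inside the counting interval of the ratio given in the text. None reversed a called direction, but members not called in the text could not count as reversed. A ratio was recomputed only where both classes had counts. Both tallies include alternatives that could not change a comparison, such as the strict LP class for ML against basal cells. Those entries stayed the same by construction, which raises both shares. The counts of members also include how many members kept the class of their highest level or share. The uncalled log2 ratio of Irx1 in LP against basal cells went from −0.005 to 0.142 with cells thinned to 800 counts. The call counts moved mainly with the fold. At 1.5-fold, 2 members were lower in LP than in basal cells, beside 34.3% of all genes compared. At that fold 2 were higher in ML than in basal cells, beside 29.45%. In sorted against unsorted basal cells 8 were higher, beside 42.7%. At 4-fold, 0 were higher in LP or in ML than in basal cells, beside 5.28% and 7.32%. In ML cells 2 were lower than in basal cells, beside 10.4%, and 2 lower than in LP cells, beside 4.57%. In stromal cells 3 were lower at 4-fold, beside 3.36%. With a count minimum of 10 or none, 2 members were higher in stromal cells (Sox17 and Sox18), and with none 1 was higher in ML than in LP cells (Irx4, with 4 and 1 counts). With cells thinned to 800 counts, 0 were higher in stromal cells, beside 15.15% of all genes, where Sox17 kept 12 counts and fell under the minimum. In the same comparison 4 were lower, beside 10.6%. Of those no longer called, Irx1, Irx2 and Irx5 had 0 stromal counts and were set to the floor of 3 counts. Sox10 had 1 stromal count and a log2 ratio of −0.508. What else moved these calls was not tested. Leaving mitochondrial, ribosomal and the 50 most abundant genes out of the total moved the median log2 ratio of all genes from −0.23 to −0.04 for LP against basal and from 0.29 to 0.14 for ML against LP cells. The genes called in LP against basal cells were then 14.3% higher and 18.0% lower, against 11.5% and 22.0%. The class with the highest level changed for Irx1, from basal to LP, with a rule count of 5, with the strict LP class and with thinning. In an alternative chosen after seeing the data, without the 174 basal cells that had 10 or more luminal keratin counts, the log2 ratio of Sox9 was 1.39 for ML and 0.85 for LP against basal cells. No paired analysis was possible because each condition has 1 library and the labels give no replicate numbers, and no library could be left out.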

Other observations

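Within the sorted basal library, 195 cells met the LP rule. Their LP markers stood at 33452 CPM and their basal markers at 16836 CPM, against 62546 CPM and 278 CPM in LP cells of total epithelium. In these cells Irx3 gave 317 CPM from 39 counts, against 144 CPM in the basal cells of that library, and Irx4 gave 106 CPM from 13 counts, against 169 CPM. The group was mixed, with a median of 1 LP marker count and 10 basal marker counts per cell, so these summed levels can come from different cells. The Sox17 counts of that library, 7 in all, were in 6 cells that met none of the rules.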
